A study of Mus musculus with 38 samples.

Results

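Mouse bone marrow-derived macrophages were compared 8 h after stimulation with lipopolysaccharide and interferon-gamma and before stimulation. The comparison used the 4 RNA libraries of the 8h group and the 4 of the 0h group, which are 8 of the 32 RNA libraries and 8 of the 38 samples of the series, and took in all genes of the deposited expression table (9942 tested of 11184 listed). All cells came from C57BL/6 mice, with no transgene or deletion named. The 0h libraries are the unstimulated cells, and the 8h libraries received lipopolysaccharide (LPS, a bacterial cell wall component) at 5 ng/ml together with interferon-gamma (IFNg) at 12 ng/ml for 8 h. Libraries of 4h and 16h, which received the same agents and no lactic acid, were used to test where 8h differed from its neighbours in time. The spread behind every SE and p-value was estimated over all 32 RNA libraries. These include the 24h libraries and libraries with lactic acid at 8, 16 and 24 h. The labels do not say whether the 4 libraries of a group came from separate mice or cultures, so a p-value reflects only how these libraries vary, which may be technical.

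LPS is sensed by Toll-like receptor 4 and switches on the transcription factors NF-kB and AP-1, and secreted type I interferon then acts back on the cells. IFNg acts through its own receptor and primes macrophages for microbial killing and antigen presentation. Cells so treated, often called M1 macrophages, are known for cytokine release, nitric oxide production, a turn toward glycolysis and a halt in proliferation, while the unstimulated state is marked by clearance of dying cells and lipid handling.

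The expression table gives RPKM, that is reads per kilobase of gene scaled to an effective library size, so levels of different genes may be set side by side. The whole reads behind these values were recovered. The reads in listed genes came to 61.3 to 69.6 M per 0h library and 74.0 to 79.6 M per 8h library. The effective size was 1.324 to 1.342 times the reads in listed genes at 0h and 0.94 to 0.978 times at 8h. Log expression of any pair of 0h libraries correlated across genes with an r of at least 0.996, and of any pair of 8h libraries with an r of at least 0.9977. The first principal component of the 8 libraries took up 97.9% of the variance and separated the groups. Macrophage markers were present in all libraries. All 12 of them were tested, with summed levels of 19621 to 21953 RPKM at 0h and 15406 to 17406 RPKM at 8h, of which 5 markers rose, 5 fell and 2 did not pass, Itgam (0.04 on the log2 scale) and Mpeg1 (-0.03).

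Changes are given as log2 fold changes on the log2(RPKM + 1) scale, which understates the change of genes with low values. A gene counts as risen or fallen when its Benjamini-Hochberg adjusted p from limma, over all 9942 genes, was under 0.05. By this rule 4044 genes rose (40.7% of those tested) and 4181 fell (42.1%), and the median gene lay at -0.01. These shares are the base for the counts of risen and fallen members in each family below. At least 2-fold changes were found in 1119 genes that rose (11.3%) and 1019 that fell (10.2%). In 4055 genes (40.8%) every 8h library lay above every 0h library, and in 4176 genes (42.0%) every 8h library lay below. The authors listed nearly only genes that passed their own test across the series, with 19 exceptions at a deposited FDR of 0.05 or more, so these shares describe that list. After every library was rescaled to the same total over the listed genes (called rescaling below), the median gene lay at -0.40, 2200 genes rose and 6365 fell, and the share of risen genes among those called went from 49.2% to 25.7%. Among genes with at least 5 RPKM in 4 libraries that share was 59.0%. Small changes of whole gene families below are therefore given with their value after rescaling where it differs in sign.

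**Figure D1:**
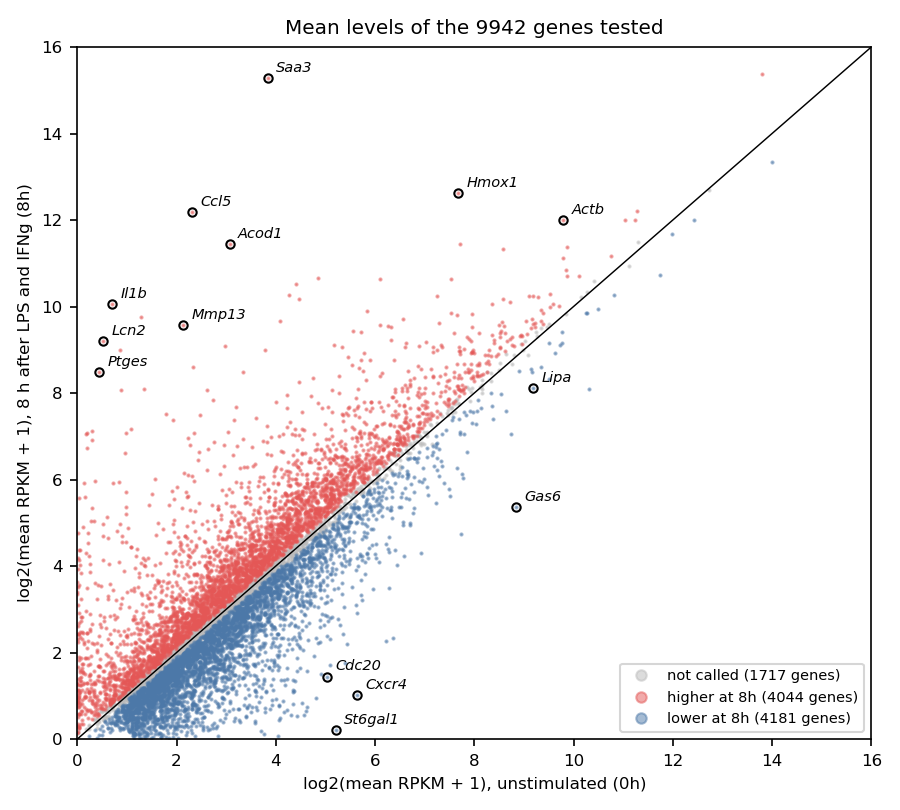
Mean level at 0h (horizontal) and at 8h (vertical), both as log2(mean RPKM + 1), for the 9942 genes tested; each dot is a gene, and the line marks equal levels. Genes that rose lie above the line (4044) and genes that fell below it (4181), with Saa3, Ccl5 and Il1b farthest above and Cxcr4 and St6gal1 farthest below.

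Inflammatory cytokine genes rose in 16 of 19 members (1 fell, median 1.76 after rescaling). The gene of the pro-inflammatory cytokine interleukin-1 beta, Il1b, stood at 0.599, 0.752, 0.581 and 0.581 RPKM in the 0h libraries and at 993, 945, 1108 and 1186 RPKM in the 8h libraries. Every 8h library lay above every 0h library, with a change of 9.34 log2 units (SE 0.22, adjusted p from limma 5.85e-27). Il1rn, which encodes the natural antagonist of the same receptor, went from 1.41 to 1.53 RPKM at 0h to 830 to 881 RPKM at 8h (8.45, SE 0.11). Against 4h, Il1b was lower at 8h than at 4h (-0.94) and Il1rn was higher (1.01). Il1a, the other interleukin-1 agonist, rose by 6.86. Il6 went from 0.0383 ± 0.0167 to 15.4 ± 1.81 RPKM (SD, n = 4) and was 3.14 log2 units below its 4h level, since it had stood at 143 ± 10.9 RPKM then. Tnf rose by 6.27 and Nos2, the inducible nitric oxide synthase gene, by 6.86. The 1 member that fell, Il15, encodes a cytokine that sustains lymphocytes. It read 12.1 to 15.3 RPKM at 0h and 12.1, 8.99, 13 and 11.9 RPKM at 8h, so the groups overlapped. Its fall of 0.21 did not pass without 8h replicate 2 (-0.11), nor without 0h replicate 2 or 3, while its mean at 4h was 187 ± 22.6 RPKM. Csf1 (-0.07) and Ifnb1 (0.17) did not pass.

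Chemokines, the secreted proteins that attract leukocytes, rose in all 22 members tested (median 3.66, 21 rose and none fell after rescaling). Ccl5, which attracts T cells and monocytes, stood at 4.19, 3.29, 4.16 and 4.18 RPKM at 0h and at 4654, 4072, 4936 and 4858 RPKM at 8h. It rose by 9.87 (SE 0.12) and was also above its 4h and 16h levels. Ccl7, a monocyte attractant, rose by 6.13 and Cxcl2, a neutrophil attractant, by 6.10. Cxcl10, the interferon-induced attractant of activated T cells, read 113, 76.1, 121 and 102 RPKM at 8h against 4.32 to 5.85 RPKM at 0h. Its rise of 4.06 left it 5.12 log2 units below 4h, when its mean was 3572 ± 170 RPKM. Of the 22 chemokine genes, 13 were lower at 8h than at 4h (36.9% of all genes tested were) and 4 were higher (34.8% of all genes).

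Acute-phase and antimicrobial effectors rose in 15 of 17 members (1 fell), the median being 2.37. Saa3, an acute-phase protein gene, stood at 16.9, 13, 10.2 and 13.3 RPKM at 0h and at 37659, 36456, 39369 and 45007 RPKM at 8h, a rise of 11.45 (SE 0.16). No other gene tested rose by more. Lcn2, which encodes the siderophore-binding protein lipocalin 2, rose by 8.68, and its difference from 16h did not pass (0.04). Acod1, whose enzyme produces itaconate, rose by 8.38, and Hp, which encodes the hemoglobin-binding protein haptoglobin, by 8.15. Pla2g2e, a secreted phospholipase gene, fell from 2.12 to 2.51 RPKM to 0.252 to 0.407 RPKM (-1.28), and Slc11a1 (0.06) did not pass.

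Of 18 markers of neutrophils and granulocyte precursors, 9 were listed and 8 tested, 6 of these rose and none fell. Their summed level was 29.8 to 37.6 RPKM at 0h and 672 to 715 RPKM at 8h, of which Lcn2 alone made up 571 to 604 RPKM. Among the others S100a8, a calcium-binding protein gene of neutrophils and monocytes, rose by 2.45 and Csf3r, the receptor gene for granulocyte colony-stimulating factor, by 1.93. Ly6g, Mpo and Elane, which define the lineage, are not among the listed genes. Since the authors listed nearly only genes that passed their own test, this does not show that such genes were not expressed. The other marker lists had 5 of 13 (dendritic cells), 4 of 18 (lymphocytes), 9 of 14 (stromal and endothelial cells) and 0 of 14 members listed (erythroid and mast cells). Dendritic cell markers summed to 317 to 342 RPKM at 0h and 998 to 1117 RPKM at 8h, nearly all from the interferon-induced gene Bst2 (315 to 340 and 995 to 1114 RPKM), and 3 of the 4 tested rose. Lymphocyte markers summed to 22.6 to 26.9 and 15.1 to 18.3 RPKM, with 1 of 3 up and 2 down, and stromal and endothelial markers to 4.46 to 5.53 and 4.51 to 4.94 RPKM, with 2 of 4 up and 2 down. The part of other cells in these results was not tested, and in bulk libraries fewer cells of a type and less RNA per cell cannot be told apart.

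Eicosanoid synthesis is the pathway from arachidonic acid to prostaglandins and leukotrienes. Of 13 of its enzymes tested 5 rose and 8 fell. Ptges, the inducible prostaglandin E synthase, stood at 0.474, 0.315, 0.293 and 0.349 RPKM at 0h and at 368, 355, 357 and 340 RPKM at 8h. It rose by 8.04 (SE 0.06), more than any other gene in the family, and was 2.03 above 4h and 2.52 above 16h. Ptgs2, the inducible cyclooxygenase, named here after its values were seen, went from 0.188 to 0.263 RPKM to 113 to 124 RPKM (6.61, SE 0.15). Alox5, which makes the leukotriene precursor, read 5.63, 4.33, 4.38 and 4.33 RPKM at 0h and 0.522, 0.5, 0.548 and 0.513 RPKM at 8h, with no overlap (-1.89, SE 0.09). Ltc4s, the leukotriene C4 synthase gene, fell by 1.76. Hpgd, whose product inactivates prostaglandins, fell by 2.05, from 3.03 to 4.66 RPKM to 0.0747 to 0.148 RPKM.

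**Figure D2:**
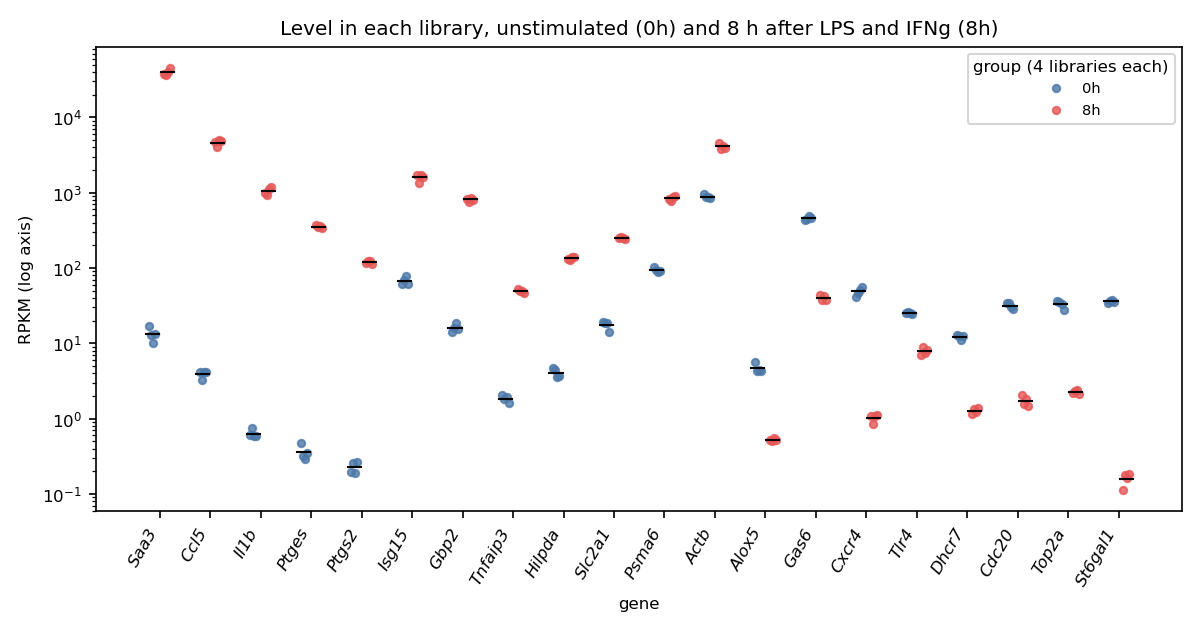
Level of 20 genes in each of the 4 libraries of 0h (blue) and of 8h (red), in RPKM on a log axis; the black line is the mean of a group. From Saa3 to Actb every 8h library lies above every 0h library, and from Alox5 to St6gal1 every 8h library lies below.

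Interferon-stimulated antiviral genes rose in all 30 members tested (median 1.97, 28 rose and none fell after rescaling). Oasl1, of the oligoadenylate synthetase family, went from 4.46 to 6.68 RPKM to 194 to 261 RPKM (5.10, SE 0.12). The antiviral GTPase gene Mx1 rose by 5.04. Isg15, a ubiquitin-like modifier gene, stood at 60.8, 69.8, 79.1 and 60.6 RPKM at 0h and at 1692, 1357, 1733 and 1626 RPKM at 8h (4.55). In each of Oasl1, Mx1, Isg15 and Cxcl10, 8h replicate 2 read lowest of its group, and still lay far above the 0h libraries. Of the set, 19 of 30 members were lower at 8h than at 4h and 26 were higher than at 16h (34.2% of all genes tested were higher at 8h than at 16h, and 36.1% lower). Guanylate-binding proteins and immunity-related GTPases, which attack the vacuoles of intracellular microbes, rose in all 14 members (median 1.75), and 13 of the 14 were lower than at 4h. Gbp2 rose by 5.59 and Gbp3 by 4.74. Gbp5 read 39.4, 30.8, 38.7 and 34.1 RPKM at 8h against 0.732 to 1.22 RPKM at 0h (4.21), after 188 ± 10.5 RPKM at 4h. These families hold near-identical copies, whose reads may have been shared among them in counting.

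Stretches before the start of 3 of these genes are shown because they carry the letters that interferon-activated factors are known to bind. The interferon-stimulated response element (ISRE), searched as GAAANNGAAA on both strands, is bound by factors activated by type I interferon, and the gamma-activated site (GAS), searched as TTCNNNGAA, by factors activated by IFNg. Capitals mark ISRE and GAS matches in Gbp5, ISRE matches in Isg15, and ISRE and NF-kB site matches in Cxcl10. Each stretch ends at the base before the start, 5′ to 3′, from RefSeq (GRCm38.p6).
Cxcl10, chr5:92348890-92349109, minus strand: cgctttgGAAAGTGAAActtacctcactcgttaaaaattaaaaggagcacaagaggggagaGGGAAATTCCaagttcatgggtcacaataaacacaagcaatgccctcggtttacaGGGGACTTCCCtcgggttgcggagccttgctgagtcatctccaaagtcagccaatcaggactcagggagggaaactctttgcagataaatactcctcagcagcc
Isg15, chr4:156200819-156200908, minus strand: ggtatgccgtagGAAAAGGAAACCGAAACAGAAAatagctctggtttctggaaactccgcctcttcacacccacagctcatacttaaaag
Gbp5, chr3:142496684-142496933, plus strand: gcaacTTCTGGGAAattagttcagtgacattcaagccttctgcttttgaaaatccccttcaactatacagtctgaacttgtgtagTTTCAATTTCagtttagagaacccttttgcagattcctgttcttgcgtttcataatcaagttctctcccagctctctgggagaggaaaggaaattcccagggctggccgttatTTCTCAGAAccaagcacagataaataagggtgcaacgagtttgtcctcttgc
In Isg15 3 overlapping ISRE matches ran from base 78 to base 57 before the start. The ISRE match of Cxcl10 began 213 bases before the start, and its nearest NF-kB matches, which overlap, lay between bases 104 and 94. The GAS letters read the same on both strands in Gbp5, where matches began 245 and 52 bases before the start. An ISRE match was found in 9 of 10 guanylate-binding and immunity-related GTPase genes with a promoter in the RefSeq table and in 9 of 24 antiviral genes (37.5%). It was found in 3.59% of the 8081 tested genes with a promoter in the table (the base of every motif share of all tested genes) and in 2.98% of the 32851 promoters of the table. GAS matches were found in 6 of the same 10 genes against 7.15% of all tested genes and 7.02% of all promoters. A match describes letters only and shows no binding.

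Genes of MHC class I presentation, which shows peptides from inside the cell, rose in all 20 members tested (median 1.23, 18 rose and none fell after rescaling). Psme2, a proteasome activator subunit, went from 76 to 84.4 RPKM to 566 to 626 RPKM (2.90). Psmb10, a subunit of the immunoproteasome, rose by 2.86 and H2-T22, a non-classical class I gene, by 2.55. Of 10 class II genes, 5 rose and 3 fell. H2-Ab1 read 3.13, 4.18, 4.41 and 3.73 RPKM at 0h and 41.1, 36.2, 38.2 and 37.8 RPKM at 8h (3.02), and H2-Eb1 rose by 1.65. March1, whose product removes class II molecules from the surface, rose by 2.14, and Ifi30, a lysosomal thiol reductase gene, fell by 0.58. H2-DMb1 (-0.11) and Ctss (0.06) did not pass. Among costimulatory and checkpoint ligands 6 of 11 rose and 4 fell. Cd40 rose by 5.45, Cd274, the gene of the checkpoint ligand PD-L1, by 4.13 and Cd86 by 2.48. Havcr2, the gene of the checkpoint receptor TIM-3, fell from 9.81 to 10.4 RPKM to 1.68 to 1.92 RPKM (-1.98), and Tnfsf4 (0.03) did not pass.

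Of 23 NF-kB subunits and inhibitors 20 rose and 2 fell (median 2.13). Traf1, a signalling adaptor, rose by 4.39, and Tnfaip3, which encodes the deubiquitinase A20, stood at 2.03, 1.83, 1.92 and 1.59 RPKM at 0h and at 53.4, 48.9, 49.7 and 47 RPKM at 8h (4.16, SE 0.07). Tnip3, which encodes a partner of A20, rose by 4.00. Cyld, another deubiquitinase that restrains NF-kB, fell by 0.62 and Birc2 (0.04) did not pass. In this list 19 of 23 genes were lower at 8h than at 4h and 21 were higher than at 16h (36.9% and 34.2% of all genes tested). Of 24 genes of JAK-STAT signalling, interferon regulatory factors and SOCS proteins, 17 rose and 5 fell (13 rose and 9 fell after rescaling). Socs3, an inhibitor of interleukin-6 family signalling, stood at 0.733, 0.866, 0.785 and 0.946 RPKM at 0h and at 281, 259, 269 and 256 RPKM at 8h (7.19, SE 0.07). Socs1, the inhibitor of interferon signalling, rose by 3.61 and Irf7 by 3.72, and Irf7 was 1 of the 4 members higher at 8h than at 4h (0.51). Stat4 fell by 1.42, and Cish (0.11) and Batf3 (-0.02) did not pass. Immediate early and MAP kinase feedback genes rose in 20 of 27 members (5 fell), the median being 1.30. Dusp1, a MAP kinase phosphatase gene, rose by 3.83, Ier3 by 3.81 and the AP-1 subunit gene Fos by 3.37. Ier5 (0.03) and Klf10 (-0.03) did not pass. Fos and Ier3 were higher at 8h than at 4h (0.59 and 0.56), whereas Dusp1 was lower (-1.46). Zfp36l1, which encodes an mRNA decay factor, fell by 2.43.

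The NF-kB site, a 10-letter motif with several alternative bases, was searched on both strands. Matches are in capitals in the stretches before the starts of Cxcl2 and Tnfaip3, shown because these genes are standard NF-kB targets.
Cxcl2, chr5:90903789-90903898, plus strand: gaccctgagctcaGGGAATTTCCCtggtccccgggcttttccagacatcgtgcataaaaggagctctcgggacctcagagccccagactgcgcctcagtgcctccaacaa
Tnfaip3, chr10:19015411-19015540, minus strand: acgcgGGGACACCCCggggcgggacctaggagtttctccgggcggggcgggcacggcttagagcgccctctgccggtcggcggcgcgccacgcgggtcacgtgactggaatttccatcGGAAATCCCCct
The matches of Cxcl2 overlap between bases 97 and 87 before the start. Tnfaip3 has 2 RefSeq starts, of which 1 is shown, a start with a match in the stretch being preferred. An NF-kB match was found in 9 of 20 genes of the NF-kB list (45.0%) and in 5 of 15 chemokine genes (33.3%), against 8.38% of all tested genes and 5.93% of all promoters. Other lists varied, with matches in 7 of 18 MHC class I genes (38.9%), 6 of 23 NRF2 and iron genes (26.1%) and 0 of 13 acute-phase and antimicrobial effectors.

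Sensors and receptors changed in both directions. Pattern recognition receptors and adaptors rose in 21 of 32 members (10 fell). Clec4e, a lectin receptor gene, rose by 5.73, Casp4, which encodes the intracellular LPS sensor caspase-11, by 3.38 and Cd14, the co-receptor gene for LPS, by 3.11. Tlr4 itself stood at 25.2, 25.7, 25.5 and 24.2 RPKM at 0h and at 7.1, 8.84, 7.52 and 8.14 RPKM at 8h, with no overlap (-1.56, SE 0.13). At 16h it was back at 22.2 ± 0.817 RPKM, and Aim2 (0.01) did not pass. Cytokine and growth factor receptors rose in 19 of 32 members (10 fell). Tnfrsf1b, the gene of tumour necrosis factor receptor 2, rose by 3.46, Il13ra1 by 2.51 and Il4ra by 2.24, the last 2 being chains of the interleukin-4 and interleukin-13 receptors. Cxcr4, the receptor gene for the retention chemokine CXCL12, read 40.8, 47.2, 50.3 and 56.7 RPKM at 0h and 1.07, 0.838, 1.1 and 1.11 RPKM at 8h. It fell by 4.61 (SE 0.11), the largest fall among the genes whose average over both groups reached 3 log2 units. Il1rap (0.07) and Il10rb (-0.05) did not pass.

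Receptors for metabolites, purines and formyl peptides rose in 16 of 26 members (9 fell). Fpr1 and Fpr2, the receptors for bacterial formyl peptides, rose by 6.77 and 6.10. Fpr1 read 1.88, 1.29, 1.19 and 1.74 RPKM at 0h and 255, 270, 284 and 282 RPKM at 8h, and both genes were above their 4h and 16h levels. Gpr84, a receptor for medium-chain fatty acids, rose by 6.16. Entpd1, which encodes the ectonucleotidase CD39 that breaks down extracellular ATP, fell by 2.56. Fc and complement receptors and complement genes rose in 11 of 19 members (5 fell), and the median of 0.32 became 0.00 after rescaling (9 rose and 9 fell). Cfb, complement factor B, went from 0.00853 to 0.0343 RPKM to 9.39 to 11.8 RPKM, and rose by 3.53 on the log2(RPKM + 1) scale. The inhibitory receptor gene Fcgr2b rose by 3.43 and the high-affinity receptor gene Fcgr1 by 3.30. Cd93 fell by 1.61. C1qb (-0.17), C3ar1 (-0.03) and Itgam (0.04) did not pass.

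Among 24 scavenger, lectin and efferocytosis receptors 14 fell and 8 rose (median -0.40). Gas6, the bridging ligand between dying cells and the TAM receptors, stood at 432, 450, 489 and 467 RPKM at 0h and at 43.8, 38.1, 41.9 and 37.4 RPKM at 8h (-3.48, SE 0.07). Mertk, the TAM receptor gene of resting macrophages, read 14.4, 14.6, 17.4 and 15.6 RPKM at 0h and 2.18, 2.01, 1.92 and 2.04 RPKM at 8h (-2.44, SE 0.09). In both genes the groups were far apart, and Mertk had risen again to 9 ± 0.613 RPKM by 16h while Gas6 had not (27.1 ± 0.467 RPKM). Itgb5, an integrin subunit of the same process, fell by 1.99. The scavenger receptor gene Marco rose by 3.88 and went on rising to 237 ± 20.9 RPKM at 16h. Tyrobp and Folr2 (both 0.07) did not pass. Alternative activation markers divided into 8 that rose and 10 that fell, and the median of -0.20 became 0.63 among genes with at least 5 RPKM in 4 libraries. Arg1, which encodes arginase 1, read 1.77, 1.67, 3.65 and 0.71 RPKM at 0h and 50.3, 75.7, 53.5 and 75.5 RPKM at 8h (4.52, SE 0.22). Clec10a fell by 1.92, Pparg, a lipid-sensing nuclear receptor gene, by 1.73 and the hemoglobin scavenger receptor gene Cd163 by 1.64.

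Of 26 macrophage lineage transcription factors 12 rose and 12 fell, against 40.7% and 42.1% of all genes tested. The median of -0.04 was 0.44 with the stricter minimum of 5 RPKM and 0.05 once each library's trend with gene length was removed. Id3 and Id1, inhibitors of helix-loop-helix factors, rose by 4.77 and 3.42, and Cebpb by 3.58. Spi1, which encodes the lineage factor PU.1, rose by 1.55, from 79.6 to 81.6 RPKM to 220 to 265 RPKM. Lyl1 stood at 45.5 to 51.6 RPKM at 0h and at 6.23 to 6.8 RPKM at 8h (-2.72). Its mean at 4h was 0.667 ± 0.106 RPKM, so that 8h lay 2.19 above 4h. Cebpe (-0.10) and Mef2d (0.02) did not pass. Csf1r, the receptor gene on which these cells depend, fell by 0.55, from 339 to 403 RPKM to 239 to 275 RPKM.

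**Figure D3:**
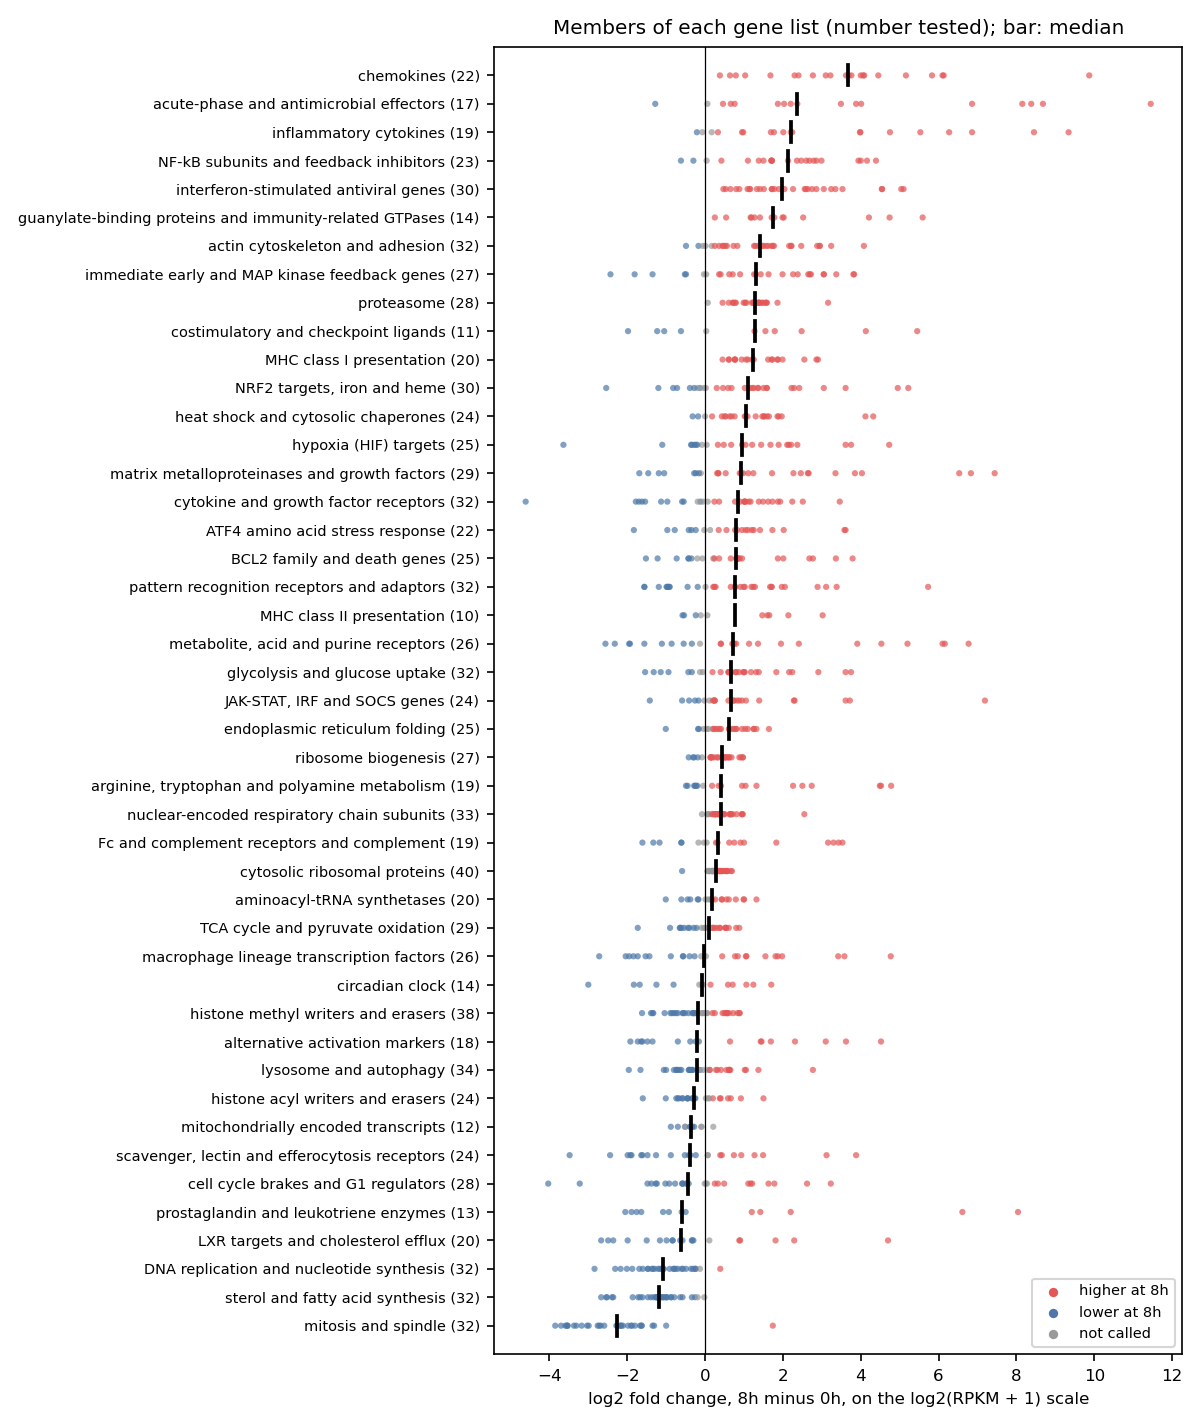
Log2 fold change of 8h over 0h, on the log2(RPKM + 1) scale, for every tested member of 45 gene lists (dots; red rose, blue fell, grey did not pass) with the list's median (bar); the number tested is in parentheses. Chemokines have the highest median (3.66) and mitosis and spindle genes the lowest (-2.26).

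Among 32 genes of the actin cytoskeleton and adhesion 27 rose and 2 fell (median 1.42, 21 rose and 5 fell after rescaling, median 1.06). Marcksl1, which encodes a membrane-bound actin regulator, rose by 4.08 and the integrin genes Itgal and Itga5 by 3.24 and 2.95. Actb, the beta-actin gene often used as a reference, read 949, 876, 879 and 839 RPKM at 0h and 4503, 3844, 4204 and 3878 RPKM at 8h (2.21, SE 0.08), with no overlap. Another common reference, Gapdh, went from 93.3 to 108 RPKM to 158 to 183 RPKM (0.67, SE 0.07). Marcks fell by 0.49, and Vim (0.01), Itgb2 (-0.06) and Itga4 (0.17) did not pass. Matrix metalloproteinases and growth factors rose in 21 of 29 members (7 fell). The collagenase gene Mmp13 rose by 7.44 and Mmp14 by 6.53. Timp2, an inhibitor of such proteases, fell by 1.69, and Mmp8 (-0.11) did not pass. Genes of the BCL2 family and of cell death rose in 16 of 25 members (6 fell). The survival genes Bcl2a1a and Bcl2a1d, near-identical copies, rose by 3.79 and 3.36, and Mlkl, the effector gene of necroptosis, by 2.77. Bbc3, which encodes the death promoter PUMA, fell by 1.52, and Bax (0.21), Bik (-0.20) and Xiap (-0.07) did not pass.

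In arginine, tryptophan and polyamine metabolism 12 of 19 genes rose and 6 fell. Slc7a2, an arginine importer gene, went from 0.0485 to 0.106 RPKM to 27.2 to 30.8 RPKM (4.78), and Ass1, which rebuilds arginine from citrulline, rose by 4.49. Both were above 4h and 16h, while Arg1 was lower at 8h than at 16h (-2.86). Oaz1 (-0.05) did not pass.

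Glycolysis and glucose uptake genes rose in 24 of 32 members (6 fell), the median being 0.67 (22 rose and 8 fell after rescaling, median 0.19). Slc2a1, the main glucose transporter gene, stood at 19.4, 18.7, 18.8 and 14 RPKM at 0h and at 251, 257, 248 and 240 RPKM at 8h (3.75, SE 0.09). Pfkfb3, whose product speeds up the pathway, rose by 3.61 and Slc2a6, a lysosomal transporter gene, by 2.91. Ldha, which makes lactate, rose by 1.38, from 347 to 463 RPKM to 1040 to 1141 RPKM, and was also above 4h (0.71). Aldoc fell by 1.54, and Tkt (-0.06) and Taldo1 (-0.13) did not pass. Of 32 such genes 23 were higher at 8h than at 4h (34.8% of all genes tested were).

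Of 29 genes of the TCA cycle and pyruvate oxidation 12 rose, 10 fell and 7 did not pass, while 40.7% of all genes tested rose and 42.1% fell. The median of 0.10 became -0.38 after rescaling. Mdh2 rose by 0.88, Dld by 0.80 and Idh3a by 0.61, and Idh3a no longer passed after rescaling (0.16). Idh1, the cytosolic isocitrate dehydrogenase gene, stood at 109, 102, 98.3 and 107 RPKM at 0h and at 28.9, 32.2, 29.9 and 31.9 RPKM at 8h (-1.73). Nuclear-encoded respiratory chain subunits rose in 29 of 33 members, and the median of 0.40 became -0.06 after rescaling (8 rose and 13 fell). Cycs, the cytochrome c gene, rose by 2.55, Cox5a by 0.97 and Atp5b by 0.95, and Ndufb5, Ndufb10, Ndufs1 and Ndufs7 (-0.08 to 0.09) did not pass. Of 12 transcripts of the mitochondrial genome tested, none rose and 8 fell (median -0.35). After rescaling none rose and 11 fell (median -0.83), and both lists then held more genes that fell than rose. ND3, a complex I subunit, fell by 0.88 and ND2 by 0.70. COX2, a subunit of cytochrome oxidase, read 16.5, 13, 9.67 and 15.6 RPKM at 0h and 7.45, 7.17, 12.1 and 10.7 RPKM at 8h, so that the groups overlapped although it passed (-0.51, SE 0.15). COX3 (0.21), ND6 (-0.10), ATP6 (-0.09) and ATP8 (-0.52) did not pass.

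Targets of hypoxia-inducible factor (HIF), the oxygen-sensing factor that LPS also raises in macrophages, rose in 16 of 25 members (7 fell), the median being 0.95. Hilpda, which encodes an inhibitor of lipid droplet breakdown, stood at 4.67, 4.46, 3.56 and 3.7 RPKM at 0h and at 130, 126, 140 and 139 RPKM at 8h (4.73, SE 0.12). It lay 3.08 log2 units above 4h and 1.57 above 16h. Anln, a cytokinesis gene that is also a HIF target, fell by 3.64. Ndrg1 (-0.08) and Kdm3a (0.04) did not pass. Of the 25 targets, 13 were higher at 8h than at 0h, 4h and 16h alike, a pattern found in 9.07% of all genes.

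The core of the hypoxia response element, ACGTG, was searched on both strands. It is in capitals in the 60 bases before the start of Hilpda and of the 2 glycolysis genes with the largest rises, shown because these genes are textbook HIF targets.
Hilpda, chr6:29272566-29272625, plus strand: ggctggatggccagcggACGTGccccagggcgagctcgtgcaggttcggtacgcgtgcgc
Slc2a1, chr4:119108685-119108744, plus strand: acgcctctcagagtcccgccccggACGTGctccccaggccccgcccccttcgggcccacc
Pfkfb3, chr2:11502091-11502150, minus strand: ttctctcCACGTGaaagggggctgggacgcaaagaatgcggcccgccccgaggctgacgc
In Pfkfb3 matches on both strands overlap. Hilpda and Pfkfb3 each have 2 RefSeq starts, of which 1 is shown, a start with a match in the stretch being preferred. The core was found in 17 of 22 HIF targets with a promoter in the table (77.3%) and in 13 of 30 glycolysis genes (43.3%). The glycolysis share was exceeded in lists not chosen for HIF. Circadian clock genes held the core in 7 of 12 (58.3%) and immediate early and MAP kinase feedback genes in 9 of 20 (45.0%). With only 5 letters it is frequent, at 26.2% of all tested genes and 16.6% of all promoters.

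NRF2 targets and genes of iron and heme rose in 20 of 30 members (7 fell), the median being 1.09. Sod2, the mitochondrial superoxide dismutase gene, rose by 5.22, Hmox1, the heme-degrading oxygenase gene, by 4.95 and Slc7a11, a cystine importer gene, by 3.61. Hmox1 read 233, 203, 187 and 189 RPKM at 0h and 5978, 6486, 6137 and 6461 RPKM at 8h, after 539 ± 63.1 RPKM at 4h. Slc40a1, the iron exporter gene ferroportin, fell from 50.2 to 54.7 RPKM to 7.24 to 9.36 RPKM (-2.54). Ftl1 (-0.03), Sod1 (0.02) and Gpx1 (-0.19) did not pass.

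Heat shock and cytosolic chaperone genes rose in 21 of 24 members (2 fell), the median being 1.06. The inducible HSP70 genes Hspa1b and Hspa1a, near-identical copies whose reads may be shared in counting, rose by 4.32 and 4.12. Hspa1b read 0.162, 0.108, 0.123 and 0.241 RPKM at 0h and 22.8, 22.1, 20.6 and 23.2 RPKM at 8h. Its means at 4h and 16h were 2.32 ± 0.101 and 1.79 ± 0.335 RPKM, far below every 8h library. The chaperonin subunit gene Cct3 rose by 1.97. Hsf1, the master factor of this response, fell by 0.32 and Fkbp4 (-0.00) did not pass. Of the 24 genes 13 were higher at 8h than at 0h, 4h and 16h alike, the same number as among HIF targets. Genes of folding in the endoplasmic reticulum rose in 19 of 25 members (3 fell), the median being 0.61 (12 rose and 10 fell after rescaling, median 0.13). Manf rose by 1.64, Creld2 by 1.32 and Ddit3, which encodes the stress factor CHOP, by 1.25. Ddit3 was 2.02 above 4h. Ern1, the gene of the stress sensor IRE1, fell by 1.01, and Dnajc3 (0.09), Edem1 (-0.04) and Herpud1 (0.04) did not pass. Genes of the ATF4 amino acid response rose in 14 of 22 members (6 fell). Slc3a2, the partner chain of several amino acid transporters, rose by 2.02 and Slc38a2, another transporter gene, fell by 1.83. Sesn2 (0.13) and Psph (-0.02) did not pass.

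Proteasome subunits rose in 27 of 28 members (median 1.27, 26 rose and 1 fell after rescaling). Psma6, a subunit of the core particle, stood at 103, 93.5, 87.9 and 90.6 RPKM at 0h and at 823, 770, 872 and 908 RPKM at 8h (3.16, SE 0.09). Psma5 rose by 1.86, Psma3 by 1.59, and Psme4 (0.07) did not pass. Cytosolic ribosomal protein genes rose in 26 of 40 members (1 fell), the median being 0.28 that became -0.20 after rescaling (2 rose and 21 fell). The largest rises were those of Rpl27 (0.69), Rps9 (0.66) and Rps24 (0.58), of which Rps24 no longer passed after rescaling (0.10), and the elongation factor gene Eef2 fell by 0.59. Aminoacyl-tRNA synthetases rose in 11 of 20 members (6 fell), the median being 0.17 that became -0.26 after rescaling. Wars, the interferon-induced tryptophanyl-tRNA synthetase gene, rose by 1.32, Kars by 1.00 and Rars by 0.99, and Vars fell by 1.01. Cars (0.01), Dars (0.08) and Yars (0.13) did not pass. Ribosome biogenesis genes rose in 22 of 27 members (4 fell, but after rescaling 8 rose and 9 fell). Bop1 and Nop16 rose by 0.97 each and Rrp9 by 0.92, Utp20 fell by 0.42 and Dkc1 (-0.08) did not pass.

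Sterol and fatty acid synthesis genes fell. Of 32 tested none rose and 30 fell (median -1.18). Of the 32, 19 were lower at 8h than at 4h (36.9% of all genes tested were). Scd1, the stearoyl-CoA desaturase gene, read 8.5, 9.87, 7.7 and 12.7 RPKM at 0h and 0.791, 0.558, 0.758 and 0.546 RPKM at 8h (-2.67, SE 0.10). Dhcr7, which catalyses the last step of cholesterol synthesis, read 13, 12.6, 10.9 and 12.4 RPKM at 0h and 1.16, 1.34, 1.21 and 1.39 RPKM at 8h (-2.54, SE 0.06). In both genes the groups did not overlap, and Dhcr7 had risen again to 4.49 ± 0.223 RPKM at 16h while Scd1 had not (0.605 ± 0.137 RPKM). Fads2, a desaturase gene, fell by 2.52. Hsd17b7 (-0.19) did not pass.

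LXR targets and cholesterol efflux genes, which respond to oxidised sterols, fell in 14 of 20 members (5 rose), the median being -0.61. Tmem86a fell by 2.49 and Scd2 by 2.36. Of these 20 genes, 14 were higher at 8h than at 4h and 2 were lower (34.8% and 36.9% of all genes tested). Scd2 went from 94.3 ± 6.63 RPKM at 0h to 2.09 ± 0.19 at 4h, 17.7 ± 2.99 at 8h and 53.7 ± 2.78 RPKM at 16h (SD, n = 4), and Tmem86a followed the same course (0.894 ± 0.126 RPKM at 4h and 10.1 ± 1.04 RPKM at 8h). Cd38, an NAD-consuming enzyme gene, rose by 4.70 and Soat1 (0.11) did not pass. Lysosome and autophagy genes fell in 18 of 34 members (13 rose), against 42.1% and 40.7% of all genes tested, the median being -0.22. Atp6v0d2, a proton pump subunit gene, fell by 1.96, the autophagy kinase gene Ulk1 by 1.66 and Lipa, the lysosomal lipase gene, by 1.06, from 543 to 615 RPKM to 272 to 284 RPKM. Ctsc, a protease that activates granule enzymes, rose by 2.77, and Ctss (0.06) and Neu1 (-0.05) did not pass.

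Mitosis and spindle genes fell in 31 of 32 members (1 rose), the median being -2.26, and 30 of them fell at least 2-fold. Ccna2, the cyclin A2 gene, stood at 29.1, 28.2, 27.2 and 23.3 RPKM at 0h and at 1, 0.972, 0.989 and 0.784 RPKM at 8h (-3.85, SE 0.05). Plk1, a mitotic kinase gene, fell by 3.70 and Cdc20, an activator of the anaphase-promoting complex, by 3.59, from 28.2 to 34 RPKM to 1.46 to 2.09 RPKM. In each of these 3 genes 0h replicate 4 read lowest of its group and still lay far above every 8h library. All but 1 of the 32 genes were lower at 8h than at 4h (36.9% of all genes tested were). Pttg1, which encodes securin, was the exception that rose (1.74), from 10.2 to 11.2 RPKM to 32.4 to 41.1 RPKM. DNA replication and nucleotide synthesis genes fell in 29 of 32 members (1 rose), the median being -1.07. Rrm2, a subunit of ribonucleotide reductase, fell by 2.84, the helicase subunit gene Mcm7 by 2.31, and Tk1 fell by 2.17. Pcna, the sliding clamp gene, rose by 0.39 (79.5 to 106 RPKM at 0h and 112 to 123 RPKM at 8h) but lay at -0.08 after rescaling. Cdt1 (-0.24) and Gins2 (-0.13) did not pass. Top2a, which untangles DNA, read 35.9, 35.3, 32.9 and 27.4 RPKM at 0h and 2.21, 2.33, 2.41 and 2.13 RPKM at 8h (-3.37, SE 0.06). Its mean at 4h was still 25.2 ± 0.836 RPKM, far above every 8h library.

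Cell cycle brakes changed in both directions, as did genes at large (40.7% of all tested rose and 42.1% fell). Of 28 brakes and G1 regulators 10 rose and 15 fell (median -0.45). Sesn1, a p53 target and growth inhibitor, went from 75.4 to 84.6 RPKM to 3.81 to 4.38 RPKM (-4.03). Cdkn2c, which encodes the CDK inhibitor p18, fell by 3.22 and the pocket protein gene Rbl2 by 1.48. Gadd45b, a stress-induced growth arrest gene, rose by 3.23, and Cdkn2a (0.05), Ccnd1 (0.02) and Cdk6 (-0.01) did not pass.

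Promoters of cell division genes are known for the CHR element (TTTGAA), read by the DREAM and MuvB complexes, and for CCAAT boxes (CCAAT), read by NF-Y. Both are in capitals in the stretches before the starts of Cdc20 and Top2a. Dhcr7, with 3 RefSeq starts of which 1 is shown, is added for its CCAAT boxes, which sterol genes are known to share. For Dhcr7 too, a start with a match in the stretch was preferred.
Cdc20, chr4:118437344-118437403, minus strand: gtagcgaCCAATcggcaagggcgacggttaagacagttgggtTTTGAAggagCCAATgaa
Top2a, chr11:99024190-99024419, minus strand: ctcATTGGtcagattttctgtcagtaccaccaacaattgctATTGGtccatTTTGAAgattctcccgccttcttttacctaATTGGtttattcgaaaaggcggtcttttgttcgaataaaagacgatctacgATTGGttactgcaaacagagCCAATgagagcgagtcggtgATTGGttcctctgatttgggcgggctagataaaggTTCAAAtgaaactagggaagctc
Dhcr7, chr7:143830114-143830213, plus strand: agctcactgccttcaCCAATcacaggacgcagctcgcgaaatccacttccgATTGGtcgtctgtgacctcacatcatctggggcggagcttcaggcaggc
In Cdc20 the CHR match lay at bases 18 to 13 before the start, and in Top2a the nearer of 2 CHR matches lay at bases 23 to 18 on the other strand. A CHR match was found in 11 of 26 mitosis and spindle genes with a promoter in the table (42.3%), against 12.8% of all tested genes and 16.0% of all promoters. A CCAAT box was found in 21 of the 26 mitosis and spindle genes (80.8%) and in 19 of 22 sterol and fatty acid synthesis genes (86.4%), against 40.9% of all tested genes and 33.8% of all promoters. High shares were not limited to division genes or to lists that fell. CHR matches were also found in 5 of 10 guanylate-binding and immunity-related GTPase genes and in 10 of 20 BCL2 family and death genes. Alternative activation markers held them in 5 of 12 genes (41.7%), and all further lists had lower CHR shares. A CCAAT box was found in 18 of 21 endoplasmic reticulum folding genes (85.7%) and in 6 of 8 MHC class II genes (75.0%). The E2F site, searched as TTTCGCGC or TTTGGCGC, was found in 5 of 26 DNA replication genes (19.2%) against 1.60% of all tested genes and 0.654% of all promoters. The sterol regulatory element, searched as TCACNCCAC, was found in 1 of 22 sterol genes (4.55%) against 1.18% of all tested genes and 1.05% of all promoters.

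**Figure D4:**
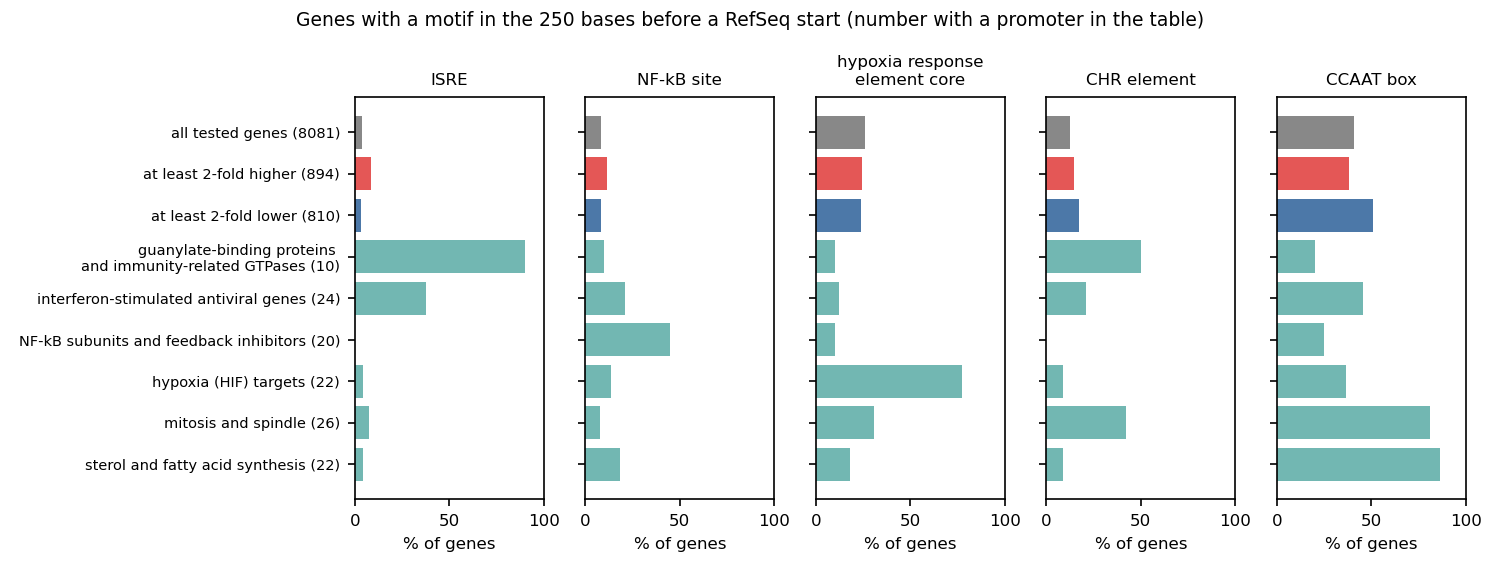
Share of genes with each of 5 motifs in the 250 bases before any RefSeq start, for all tested genes (grey), genes at least 2-fold higher (red) or lower (blue) at 8h, and 6 gene lists (green); the number of genes with a promoter in the table is in parentheses. ISRE matches reach 9 of 10 guanylate-binding protein genes and CCAAT boxes 86.4% of sterol synthesis genes, while the red and blue bars stay nearer to the grey.

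Over the genes that changed at least 2-fold, an ISRE match was found in 78 of 894 genes at least 2-fold higher (8.72%) and in 28 of 810 at least 2-fold lower (3.46%), and an NF-kB match in 11.6% and 8.27%. The AP-1 site (TGANTCA) was found in 8.95% and 6.91%, against 5.64% of all tested genes and 6.75% of all promoters. CCAAT boxes were found in 38.3% of the higher and 50.6% of the lower genes. The antioxidant response element (TGACNNNGC) was found in 15.5% and 16.0%, against 14.2% of all tested genes and 10.2% of all promoters. It was found in 6 of 23 NRF2 and iron genes (26.1%). That share was near the 25.0% of each of the NF-kB, immediate early and clock lists. The heat shock element (GAANNTTCNNGAA) was found in 2 of 19 chaperone genes (10.5%), against 0.470% of all tested genes and 0.466% of all promoters.

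Histone H3 lysine 18 lactylation (H3K18la) and acetylation (H3K18ac) were profiled in unstimulated cells and at 24h, not at 8h, with 1 library per mark and state, so that peak shares are descriptions with no replicate. An H3K18la peak of the authors lay within 1000 bases of a RefSeq start for 92.8% of the 8081 tested genes with a start in the table in unstimulated cells and for 76.5% at 24h (21885 and 16139 peaks in all). All shares here are of genes with such a start. For genes at least 2-fold higher at 8h the shares were 81.1% and 80.4%, and for genes at least 2-fold lower 94.7% and 59.1%. For H3K18ac, with 41493 and 42237 peaks, the higher genes had shares of 88.3% and 91.3% and the lower genes 96.3% and 85.1%, against 94.8% and 92.7% of all tested genes. The 2 lactylation libraries differ in their number of peaks, whose part in these shares was not tested.

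Of 24 histone acyl writers and erasers 7 rose and 14 fell, and the median of -0.29 was 0.05 with the minimum of 5 RPKM. The deacylase genes Sirt3, Hdac6 and Sirt1 fell by 1.60, 1.01 and 0.74. Sirt3, the mitochondrial sirtuin, read 7.01, 7.78, 7.57 and 8.32 RPKM at 0h and 1.7, 1.73, 1.91 and 2.12 RPKM at 8h. Hdac1 rose, from 15.8 to 17.2 RPKM to 42.5 to 51.8 RPKM, and Kat2b (0.08), Kat8 (0.02) and Hdac3 (0.11) did not pass. Of 38 histone and DNA methyl writers and erasers 12 rose and 19 fell, and the median of -0.17 was likewise 0.05 with the minimum of 5 RPKM. The DNA methyltransferase genes Dnmt1 and Dnmt3a fell by 1.62 and 1.39 and Ezh2, the Polycomb methyltransferase gene, by 1.35. Dot1l rose by 0.89.

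Among 14 circadian clock genes 6 rose and 5 fell, and the median of -0.07 was 0.05 with the length trend removed. Dbp, an output gene of the clock, stood at 11.8, 12.7, 15.6 and 16.4 RPKM at 0h and at 0.858, 0.842, 0.827 and 0.97 RPKM at 8h (-3.00, SE 0.15). The repressor genes Nfil3, Ciart and Bhlhe40 rose by 1.70, 1.24 and 1.06. Bhlhe40 and Ciart were above 4h (1.58 and 1.04), and Ciart was also 1.57 above 16h. Clock (-0.15), Nr1d1 (-0.08) and Csnk1d (-0.05) did not pass. The labels give no time of day, and hours of stimulation and hours of the day cannot be told apart here.

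Some genes set 8h apart from both neighbours in time. In 902 genes (9.07% of those tested) 8h was higher than 0h, 4h and 16h, each difference with a limma adjusted p under 0.05, and in 965 genes (9.71%) it was lower than all 3. The 8 peaks with the largest smallest difference were Ptges, Hilpda, Hspa1b, Hspa1a, Il1f6, Adm, Ak4 and Fosl1. Il1f6, which encodes interleukin-36 alpha, had 2 reads in all 0h libraries together (0, 0, 0.0244 and 0 RPKM) and stood at 14.7, 17.2, 18.2 and 18.7 RPKM at 8h. Adm, the vasodilator adrenomedullin, read 0.137, 0.3, 0.385 and 0.0595 RPKM at 0h and 4.38, 5.6, 5.12 and 6.08 RPKM at 8h, 1.82 above 4h and 1.90 above 16h. Ak4, a mitochondrial adenylate kinase gene, lay 2.26 above 0h and 1.64 above both 4h and 16h. Fosl1, an AP-1 subunit gene, rose by 2.72 and lay 1.94 above 4h. HIF targets (13 of 25), heat shock genes (13 of 24), glycolysis genes (9 of 32) and ATF4 response genes (8 of 22) held peaks in these numbers, as did actin and adhesion genes (9 of 32). NRF2 and iron genes held 8 of 30, proteasome genes 7 of 28 and cytokine and growth factor receptors 8 of 32. Chemokines held 2 of 22, near the 9.07% of all genes tested, and guanylate-binding protein genes 0 of 14.

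The 8 named troughs were St6gal1, Wwp1, Arhgap18, Rgs2, Rgs18, Hist1h1c, Ivns1abp and Havcr2. St6gal1, which encodes a sialyltransferase, stood at 34.6, 35.9, 37.6 and 35.5 RPKM at 0h and at 0.112, 0.18, 0.161 and 0.182 RPKM at 8h. It fell by 4.99 (SE 0.06) and lay 1.00 below 4h and 1.69 below 16h. Rgs2 and Rgs18, which shorten signalling by G protein-coupled receptors, fell by 3.41 and 2.84. Wwp1, a ubiquitin ligase gene, fell by 3.95 and Arhgap18 by 3.63. The linker histone gene Hist1h1c was at 19.6 ± 2.13 RPKM at 0h, 19.9 ± 0.571 at 4h, 6 ± 0.333 at 8h and 24.1 ± 3.56 RPKM at 16h, so its fall came after 4h and had ended by 16h. Ivns1abp fell by 2.13. Of sterol and fatty acid synthesis genes 11 of 32 were troughs, and of macrophage lineage transcription factors 7 of 26, against 9.71% of all genes tested.

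**Figure D5:**
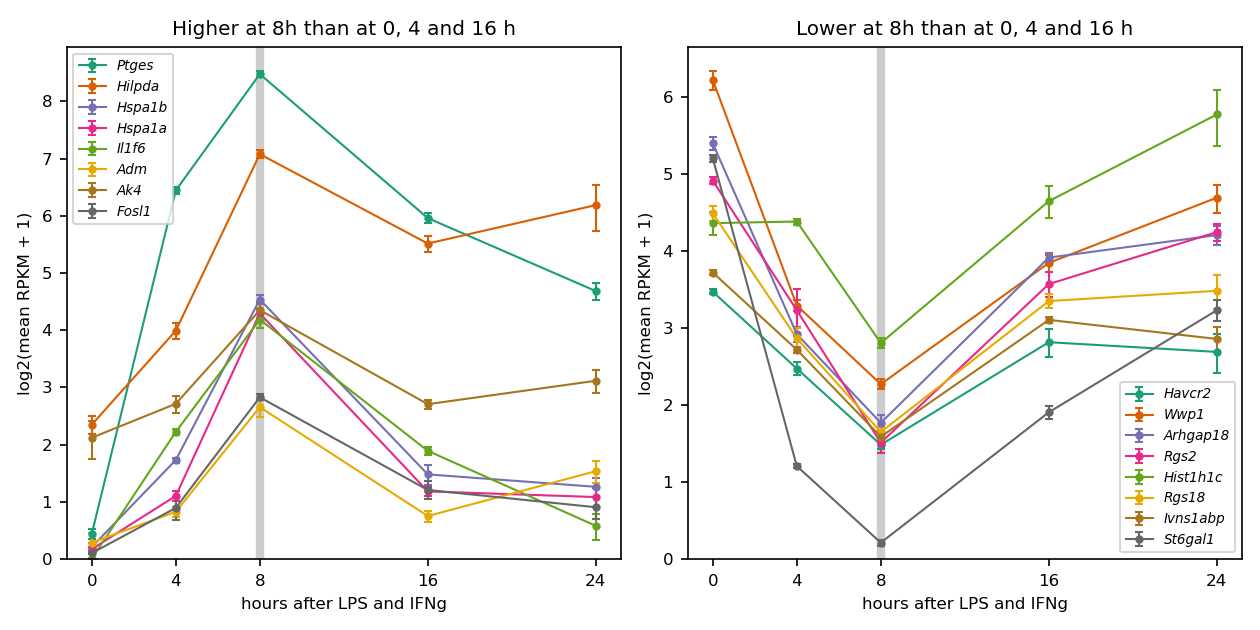
Mean level, as log2(mean RPKM + 1), of 8 genes higher at 8h (left) and 8 genes lower at 8h (right) than at 0, 4 and 16 h, against hours after LPS and IFNg; points are means of 4 libraries and bars 1 SD, and the grey band marks 8 h. Ptges reached 355 RPKM at 8h, and St6gal1 fell to 0.159 RPKM.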

How the data were processed

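RNA of 32 macrophage libraries was made with a stranded mRNA kit, per the labels' protocols. The submitters' processing notes name HISAT2 2.1.0, featureCounts 1.5.0-p1, MACS2 2.2.1 and builds mm10 and GRCm38, with no role or order. The strand setting of counting and the peak threshold are not given in the sources used here. The authors deposited RPKM per gene and library, their log2 fold change of 8h over 0h and a p-value (FDR) per gene. The authors' peak lists, 1 per library, give a ratio (fold enrichment) per peak, which was not used beyond the peak's position.

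A gene was tested where 4 or more of the 32 libraries reached 1 RPKM (9942 genes, leaving 1242 listed genes out). Values were fitted as log2(RPKM + 1) by limma-trend, version 3.58.1, under R 4.3.3, using a mean for each group of all 32 libraries (24 residual degrees of freedom). In a fit of the 0h and 8h libraries alone 4260 genes rose and 4347 fell. P-values were adjusted by Benjamini-Hochberg within each of the 3 contrasts, 8h against 0h, 4h and 16h. The script was tested on simulated data. All 8225 genes called had the sign of the authors' deposited log2 fold change, which describes the same libraries and so gives no independent check. Whole reads were recovered from the steps of the RPKM values. Library sizes and gene lengths were chosen to bring the values within 0.05 reads of a whole number. That 100% of values met this is therefore no independent check, and the chance rate of 10.0% holds only for a length fixed beforehand. RefSeq promoters (GRCm38.p6) were matched by symbol or synonym for 8081 tested genes.

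The members and the 51 gene lists were chosen with earlier results of these data known. Genes were named by rule, and some genes that the rule names are not reported here. These were 12 genes always, the 3 called members of each list that changed most in its main direction and the 1 that changed most in the other, the 10 genes each that rose and fell most where the average reached 3 log2 units, 8 peaks and 8 troughs, and members not called where 5 or fewer. Each of the 9 kinds of alternative changed 1 choice: the pseudocount, no minimum or a minimum of 5 RPKM, the libraries fitted, a library left out, the replicate block, rescaling, the length trend, and a robust fit.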

Additional observations from a re-analysis of the deposited data

Results flagged for a closer look

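Of 404 groups of 4 libraries examined (each of the genes given by name, at 0h and at 8h), 23 held a library whose distance from the nearest other library took up more of the group's range than Dixon's 95% critical value allows. Chance alone flags about 1 in 20 groups. The values below are RPKM, and the libraries were kept in all results.

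At 0h, replicate 1 was apart for Alox5 (5.63). Replicate 2 was apart for Ccl5 (3.29), Id3 (0.285), Il1b (0.752) and Ivns1abp (11.7). Replicate 3 was apart for Cd93 (97.2), Ier3 (12), Il13ra1 (4.02) and Il1f6 (0.0244). Replicate 4 was apart for Gapdh (93.3) and Slc2a1 (14).

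At 8h, replicate 1 was apart for Cebpb (96.9) and replicate 3 for Bop1 (22.3). Replicate 2 was apart for Cd274 (111), Cd38 (35.9), Cxcr4 (0.838), Ddit3 (22.7), Mlkl (74.2) and Pttg1 (32.4). Replicate 4 was apart for Ccna2 (0.784), Itgb5 (15.4), Rcbtb2 (2.1) and Rrm2 (2.03). In each of these genes every 8h library still lay on 1 side of every 0h library.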

How the results depend on the processing

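Of 112 recomputed counts of genes, 104 stayed within 1.5 times the value reported. The number at least 2-fold lower was 1560 with a pseudocount of 0.1 RPKM. With at least 5 RPKM in 4 libraries 6868 genes were tested. Of these 3377 rose, 2350 fell, 661 fell at least 2-fold, and 536 had a trough. With libraries rescaled to equal reads in listed genes 2200 rose, 6365 fell, 691 rose and 1987 fell at least 2-fold. Leaving out a library gave 3945 to 4017 risen and 4094 to 4142 fallen genes, 1099 to 1138 and 1005 to 1037 at least 2-fold, and 856 to 900 peaks and 892 to 957 troughs.

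Rescaling turned the sign of Pcna (-0.08) and of the medians of TCA cycle (-0.38), respiratory chain (-0.06), ribosomal protein (-0.20), tRNA synthetase (-0.26) and stromal marker genes (-0.16). The minimum of 5 RPKM turned the medians of lineage factors (0.44), histone acyl (0.05) and methyl (0.05) genes and alternative activation markers (0.63). Removing the length trend turned lineage factors (0.05) and clock genes (0.05). The cause was not tested. Of the named genes, Il15 lost its call in the fit of the 0h and 8h libraries alone and without 0h replicate 2 (-0.19), 0h replicate 3 (-0.15) or 8h replicate 2 (-0.11). Idh3a, Rps24, Itgax (0.00) and Acta2 (0.01) lost theirs after rescaling, and Acta2 also with the length trend removed (0.15).

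Libraries with the same replicate number did not deviate together (correlations of -0.37, -0.06, -0.25 and 0.02). With the replicate block 4037 genes rose and 4180 fell, and no named gene changed its call.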
